A study of Mus musculus with 28 samples.

Results

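Transcript levels of 10 heat shock genes were read in 28 RNA libraries of CD4+ T cells sorted from mouse small intestinal lamina propria, gated as live CD45+, CD90.2+, TCRb+ and CD4+. The genes are Hspa1a, Hspa1b, Hsph1, Dnajb1, Hspa8, Hsp90aa1, Hsp90ab1, Hspd1, Hspe1 and Hsf1, and each was found by its symbol among the 25124 genes of the table. They were chosen from earlier results of these data, in which Hspa1a stood out for its low level in SPF aCD3 and in GF isotype. Since at least 1 of these groups stands in every comparison of groups, Hspa1a and its near-identical copy Hspa1b are described there with values and no test, and the other 8 genes were tested. All mice carried the T-bet-ZsGreen reporter, a fluorescent marker of the transcription factor T-bet, and no group without it was analysed here. Mice were either SPF (specific-pathogen-free, colonised by gut microbes) or GF (germ-free). They were given aCD3, an antibody to the CD3 chains of the T cell receptor, or its isotype control. The groups were SPF isotype (n = 6), SPF aCD3 (n = 6), GF isotype (n = 10) and GF aCD3 (n = 6), each library named by the sex of the mouse and a number. The dose, the time after injection and the age of the mice were not given in the sources used here. Nothing in the labels says whether mice were pooled, so p-values measure the spread between these libraries.

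Heat shock proteins are chaperones, which bind unfolded polypeptides and help them fold or keep them from clumping. Heat, unfolded protein and other stresses free the transcription factor HSF1 from chaperones in the cytosol, and HSF1 then forms trimers that bind heat shock elements, inverted repeats of a short unit, in the promoters of inducible chaperone genes. Hspa1a and Hspa1b encode the strongly inducible Hsp70, Hspa8 the constitutive Hsp70 (Hsc70), Dnajb1 a J-domain partner that hands substrates to Hsp70, and Hsph1 an Hsp110 that exchanges its nucleotide. Hsp90aa1 and Hsp90ab1 encode the inducible and the constitutive cytosolic Hsp90, and Hspd1 and Hspe1 the chaperonin Hsp60 and its lid Hsp10 in mitochondria. Inducible members are also known to respond to the warming and mechanical stress of tissue digestion, and the labels describe warm incubations with stirring before sorting.

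Hspa1a (chromosome 17, 34969359 to 34972156, minus strand) and Hspa1b (chromosome 17, 34956429 to 34959238, minus strand) are single-exon neighbours in mm10. Their coding sequences were 99.4% identical, with 8 mismatches and 3 gap bases, and their proteins of 641 and 642 residues were 99.8% identical. Of the 150-base windows along each transcript, 45.95% of those of Hspa1a and 40.5% of those of Hspa1b occur in another gene, so the split of reads between the copies is uncertain and the pair is read together. Hspa1a also overlaps Gm20481 on the other strand, and whether strand was used in counting was not given in the sources used here. The 250 bases before each start are shown because the copies also share this region and because HSF1 acts through it (RefSeq, GRCm38.p6; capitals mark the only match to a pair of inverted heat shock units, GAANNTTC or TTCNNGAA, searched on both strands of these palindromic motifs).
Hspa1a, chr17:34972157-34972406, minus strand: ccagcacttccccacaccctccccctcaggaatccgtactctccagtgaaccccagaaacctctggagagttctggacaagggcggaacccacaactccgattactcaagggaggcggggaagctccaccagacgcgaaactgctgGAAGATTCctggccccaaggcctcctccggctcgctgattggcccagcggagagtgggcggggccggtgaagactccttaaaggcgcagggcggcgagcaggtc
Hspa1b, chr17:34959239-34959488, minus strand: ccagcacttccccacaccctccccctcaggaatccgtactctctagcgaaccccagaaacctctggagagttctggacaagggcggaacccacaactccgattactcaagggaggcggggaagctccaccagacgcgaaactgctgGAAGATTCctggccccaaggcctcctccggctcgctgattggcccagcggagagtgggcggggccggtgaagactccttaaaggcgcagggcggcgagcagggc
The pair differed here at 3 bases, written C44T, T47C and T249G from Hspa1a to Hspa1b and counted from the first base shown, and none lies in the capitals. Hsph1 and Hspe1 also held matches, and a short window around each is shown for comparison, with capitals on the matching run.
Hsph1, chr5:149636351-149636380, minus strand: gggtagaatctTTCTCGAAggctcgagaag
Hspe1, chr1:55088053-55088082, plus strand: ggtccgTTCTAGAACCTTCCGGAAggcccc
The RefSeq promoter table held 6 of the 10 genes, and 4 of these 6 had at least 1 match in 250 bases, against 13% of all 27025 promoters in the table. A run of 3 units, present in 0.403% of those promoters, was found in 1 of the 6, Hspe1, whose window lies within the oppositely oriented Hspd1, just past its start as the table places it. Dnajb1 and Hspd1 had no match in their windows, which says only that these letters are not there. Hspa8, Hsp90aa1, Hsp90ab1 and Hsf1 were not in that table.

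Libraries held 6765529 to 17860610 reads in genes, recovered as whole numbers from the deposited TPM (a gene's reads per length as a share of all). Lag3, a checkpoint receptor gene raised by T cell receptor stimulation, was at 505 to 825 TPM in SPF aCD3 and at 5.41 to 18.5 TPM in both isotype groups. In GF aCD3 it was at 498, 452 and 527 TPM in M1, M2 and M5, but at 9.59, 17.0 and 12.3 TPM in F1, M3 and M4. The last 3 libraries thus went against their label in this gene, and since they would be picked by a measured outcome they were not set apart as a group; each was left out in turn. Sample numbers in the column names run from 1 to 12 in SPF and from 25 to 33 and 48 to 54 in GF, so colonisation and sample number cannot be told apart. The T cell markers summed to 1515 to 2052 TPM over all libraries, and 0 of 7 was at 0 throughout any group. In each comparison the median tested gene was itself shifted in TPM, by -0.35 on the log2 scale in SPF aCD3 against SPF isotype and by 0.34 in GF aCD3 against SPF aCD3. Scaling by median of ratios, which sets the typical gene level between libraries, brought these medians to -0.046 and 0.022, and its values are given where they differ in call or direction.

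Levels of different genes were compared as RPKM over spliced exons, from the recovered reads and the library's total in genes, because the deposited TPM divides by the genomic span with introns. On this scale Hsp90ab1 at 754 ± 99.7 (SD, n = 6) and Hspa1b at 745 ± 204 led in SPF isotype, followed by Hspa1a at 534 ± 144 and Hspa8 at 464 ± 53.3. Neighbours in this order overlapped in their ranges down to Hspa8. Hsp90aa1 at 256 ± 34.1 and Hsph1 at 217 ± 64.7 came next, then Dnajb1 at 144 ± 46.7, Hspe1 at 117 ± 22.3 and Hspd1 at 86.1 ± 12.3, and Hsf1 was last at 18.5 ± 3.48. Hspa8 lay above Hsp90aa1, and Hspd1 above Hsf1, without overlap. The order in SPF aCD3 was different: Hsp90ab1 (958 ± 120), Hspa8 (529 ± 70.3) and Hsp90aa1 (257 ± 53.5) led, without overlap among these 3, and Hspa1b at 84.5 ± 28.2 and Hspa1a at 52.9 ± 17.7 were seventh and eighth of the 10. In both GF groups the order began with Hsp90ab1, then Hspa8, then Hsp90aa1. Reads over introns enter these values if they were counted, and Hspa8, Hsp90aa1, Hspd1 and Hspe1 share 56.0%, 36.2%, 18.6% and 14.1% of their windows with other genes, so their levels carry that uncertainty as well.

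**Figure D1:**
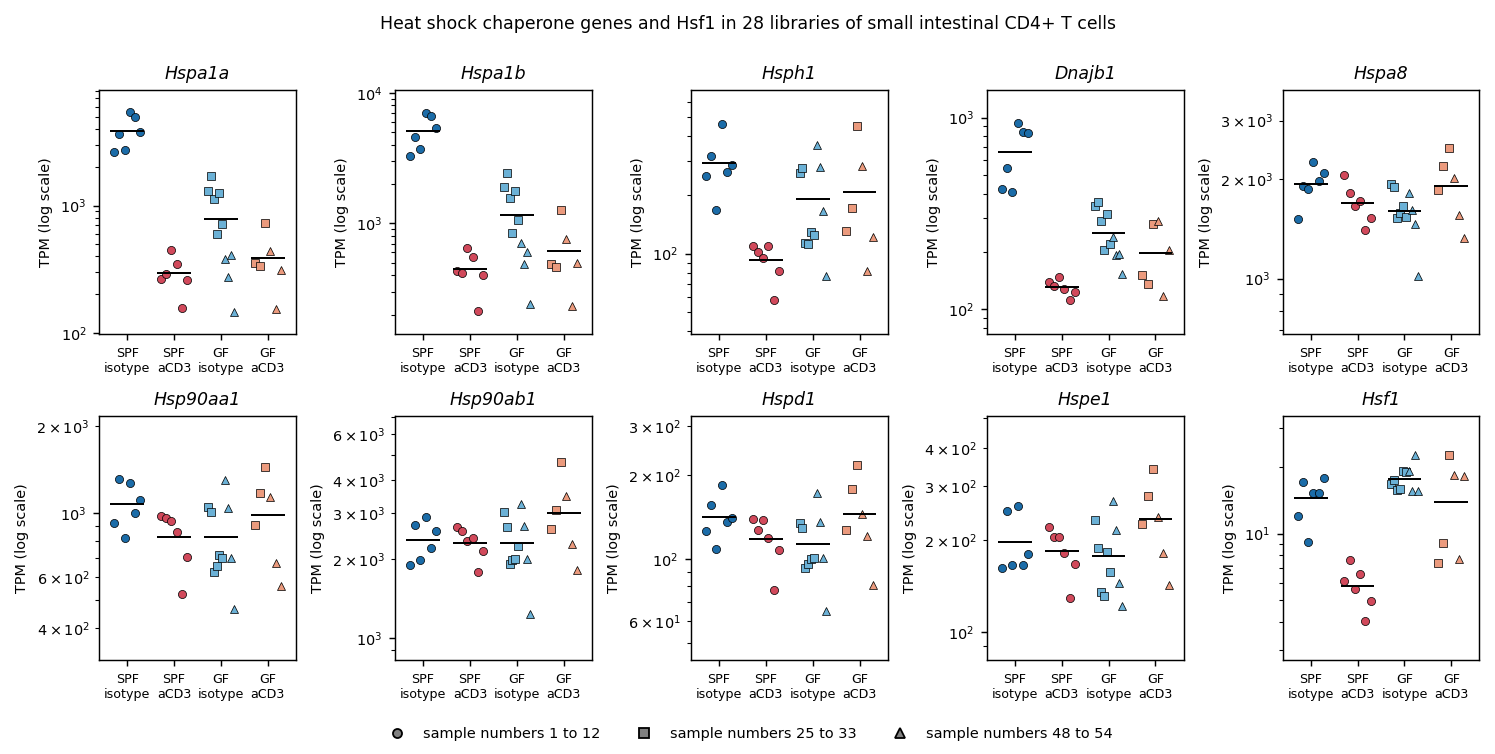
TPM of each gene on a log axis for every library, by group; each point is a library, its shape gives the span of sample numbers and the line is the group mean. Hspa1a, Hspa1b, Dnajb1, Hsph1 and Hsf1 show no overlap between SPF isotype and SPF aCD3, and the triangles of GF isotype lie below the squares for Hspa1a.

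aCD3 in SPF mice went with low levels of the inducible Hsp70 genes and of their partners Dnajb1 and Hsph1, while Hspa8, both Hsp90 genes and the mitochondrial chaperones did not pass the test. Hsph1, Dnajb1 and Hsf1 fell, 3 of the 8 tested genes, each by limma with an adjusted p under 0.05; of all 12182 tested genes 64.8% were called in this comparison (60.1% after median-of-ratios scaling), so the share of genes called is below the background. Of the calls, 1726 were higher and 6172 lower in TPM, and 3476 were higher and 3847 lower after the scaling. The 5 that did not pass were Hspa8, Hsp90aa1, Hsp90ab1, Hspd1 and Hspe1. With the Hspa1 pair, 5 of the 10 genes lay lower in every SPF aCD3 library than in any SPF isotype library. Of all tested genes 41.9% showed no overlap between these groups in TPM, and 33.4% lay lower without overlap.

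Hspa1a was at 2639, 3692 and 2744 TPM in SPF isotype F1 to F3 and at 5451, 5016 and 3810 TPM in M1 to M3. In SPF aCD3 it was at 267, 289 and 451 TPM in F1 to F3 and at 345, 158 and 259 TPM in M1 to M3. The lowest isotype library was thus far above the highest aCD3 library. Group means were 3892 ± 1151 TPM (SD, n = 6) and 295 ± 97.9 TPM (n = 6), a log2 difference of -3.73 ± 0.46 (SE), and at least 743 reads lay behind each value. Hspa1b had the same pattern, 5103 ± 1521 TPM in SPF isotype and 443 ± 147 TPM in SPF aCD3, with a log2 difference of -3.55 ± 0.44. Summing the copies gave -3.62, and median-of-ratios scaling gave -3.36 for Hspa1a and -3.17 for Hspa1b. Set against the constitutive Hspa8 in the same library, with reads per spliced length, Hspa1a was at 0.848 to 1.47 times Hspa8 in SPF isotype and at 0.0648 to 0.157 times in SPF aCD3; this ratio does not depend on how libraries are scaled. On the same scale the ratio of Hspa1a to Hspa1b was 0.666 to 0.755 in SPF isotype and 0.583 to 0.698 in SPF aCD3, so both copies were low together.

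In GF isotype, 6 of 10 libraries had an Hspa1a value between the ranges of the SPF groups, 3 lay within the range of SPF aCD3 and 1 below it. It was at 599, 1248 and 713 TPM in F1 to F3 and at 1310, 1704 and 1123 TPM in M1 to M3, the libraries numbered 25 to 33. In the libraries numbered 48 to 54 it was at 408 and 146 TPM in F4 and F5 and at 378 and 274 TPM in M4 and M5. All 10 values were below those of SPF isotype, and the 4 of the later numbers were below the other 6. The difference from SPF isotype was -2.60 ± 0.41 on the log2 scale for Hspa1a and -2.38 ± 0.39 for Hspa1b over all 10 libraries. It was -1.84 ± 0.31 for the earlier numbers and -3.73 ± 0.35 for the later ones, for Hspa1a. Within GF isotype the later numbers were lower by -1.90 ± 0.35 for Hspa1a and by -1.66 ± 0.37 for Hspa1b. This split was examined after the values had been seen, so it is given without a test, and the part of the sample number in the difference between GF and SPF isotype was not tested. Fewer expressing cells and less RNA per cell cannot be told apart in these bulk samples.

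In GF aCD3, Hspa1a was at 351, 335 and 732 TPM in M1 to M3 (numbers 25 to 33) and at 310, 436 and 153 TPM in F1, M4 and M5 (numbers 48 to 54). These values overlapped GF isotype and SPF aCD3. Nor did they separate with Lag3, as F1, with Lag3 at an isotype level, was below M1 and M2. Against GF isotype the log2 difference was -0.93 ± 0.42 for Hspa1a and -0.93 ± 0.40 for Hspa1b. For Hspa1a it was -1.38 ± 0.39 within the numbers 25 to 33 and -0.08 ± 0.41 within 48 to 54. GF aCD3 and SPF aCD3 differed by 0.20 ± 0.47 in Hspa1a, and the sign turned after median-of-ratios scaling (-0.18). Both effects of aCD3 were negative, and the one in GF was the smaller in size. The GF value minus the SPF value was 2.80 ± 0.62 for Hspa1a and 2.62 ± 0.60 for Hspa1b. The GF effect here is a mean over 6 libraries, 3 of which (F1, M3 and M4) had Lag3 at isotype levels.

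Dnajb1 (chromosome 8, 83608175 to 83612653, plus strand), the J-domain partner, followed the Hspa1 pair most closely, with no window shared with another gene. It was at 423, 545 and 410 TPM in SPF isotype F1 to F3 and at 934, 838 and 834 TPM in M1 to M3, and at 111 to 148 TPM in the 6 SPF aCD3 libraries. The groups were 664 ± 232 and 130 ± 12.7 TPM (SD, n = 6 each) and did not overlap. It fell by 2.27 ± 0.23 on the log2 scale (limma adjusted p = 3.18e-07), and by 1.89 after median-of-ratios scaling. In GF isotype it was at 154 to 361 TPM (mean 251 ± 71.5, n = 10), below every SPF isotype library, a difference of -1.38 ± 0.20 (adjusted p = 0.000296). This difference was -1.16 ± 0.21 for the numbers 25 to 33 and -1.71 ± 0.24 for 48 to 54. That split was examined after the values had been seen, so it is given without a test. In GF aCD3 it was at 204, 152, 136, 279, 289 and 118 TPM in F1 and M1 to M5, overlapping GF isotype, with a difference of -0.49 ± 0.21 (adjusted p = 0.105). That difference was -0.59 without M3 (adjusted p = 0.0384) and -0.60 without M4 (adjusted p = 0.038). The values of Dnajb1 split with Lag3, as did those of Hsf1 and, at 491 against 494 TPM, narrowly those of Hspa1b. The other 7 members overlapped. The share of all tested genes that split in this way was not determined, so nothing is read from the number of members. In Dnajb1 the high-Lag3 libraries M1, M2 and M5 lay below every GF isotype library. F1, M3 and M4, with Lag3 at isotype levels, lay within the range of GF isotype. The aCD3 effect differed between GF and SPF by 1.78 ± 0.31 (adjusted p = 0.00404), a mean over all 6 GF aCD3 libraries, the 3 with low Lag3 included. It ran from 1.67 without F1 to 1.92 without M5 with single libraries left out.

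Hsph1 (chromosome 5, 149616845 to 149636315, minus strand), the Hsp110 exchange factor, fell after aCD3 in SPF and was variable in GF. It was at 251, 318 and 168 TPM in SPF isotype F1 to F3 and 463, 264 and 285 TPM in M1 to M3, and at 58.0 to 110 TPM in SPF aCD3. The groups did not overlap, and the fall was 1.61 ± 0.34 on the log2 scale (limma adjusted p = 0.000247). GF isotype ran from 76.6 to 361 TPM and GF aCD3 from 82.0 to 451 TPM, a difference of -0.12 ± 0.31 (adjusted p = 0.794) whose sign turned after median-of-ratios scaling (0.037). Of these 16 libraries 2 lay within the range of SPF aCD3, 7 within that of SPF isotype and 7 between the ranges. The aCD3 effect differed between GF and SPF by 1.49 ± 0.46, which missed the threshold in TPM (adjusted p = 0.0581) and passed it after median-of-ratios scaling (1.28, adjusted p = 0.0474).

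The constitutive Hspa8 was at 1517 to 2244 TPM in SPF isotype and at 1399 to 2058 TPM in SPF aCD3, with overlapping groups. Its log2 difference was -0.19 ± 0.14 (limma adjusted p = 0.232), and 0.19 after median-of-ratios scaling. GF isotype ran from 1021 to 1926 TPM, the lowest value in F5, and GF aCD3 from 1325 to 2479 TPM, the highest in M3. GF aCD3 against GF isotype gave 0.17 ± 0.13 (adjusted p = 0.329). Hspa8 was thus among the most even of the 10 genes, while its inducible relatives varied over more than an order of size.

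The Hsp90 genes did not pass the test in any of the 6 comparisons. Hsp90aa1 was at 821 to 1308 TPM in SPF isotype and at 528 to 980 TPM in SPF aCD3 (-0.39 ± 0.22, limma adjusted p = 0.128). It ran from 467 to 1300 TPM in GF isotype and from 562 to 1450 TPM in GF aCD3. Hsp90ab1 was at 2373 ± 408 TPM in SPF isotype, 2312 ± 312 TPM in SPF aCD3 (n = 6 each), 2298 ± 601 TPM in GF isotype (n = 10) and 2995 ± 1026 TPM in GF aCD3 (n = 6). Its highest value in any library was 4716 TPM in GF aCD3 M3, and all 4 groups overlapped. With voom, limma's weighting of the recovered reads, Hsp90ab1 was higher in SPF aCD3 by 0.39 (adjusted p = 0.0463), so its call depends on the model.

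The mitochondrial pair also did not pass in any of the 6 comparisons. Hspd1 (Hsp60) was at 142 ± 26.1 TPM in SPF isotype and 118 ± 23.3 TPM in SPF aCD3 (n = 6 each), a difference of -0.27 ± 0.20 (limma adjusted p = 0.241). Hspe1 (Hsp10), which overlaps Hspd1 on the other strand in GENCODE, was at 197 ± 44.5 and 184 ± 33.1 TPM (-0.08 ± 0.20, adjusted p = 0.719). After aCD3 in GF the differences were 0.24 ± 0.18 for Hspd1 and 0.32 ± 0.18 for Hspe1, neither past the threshold (adjusted p = 0.329 and 0.2). The signs of the SPF differences of Hspa8, Hsp90ab1, Hspd1 and Hspe1 turned from negative to positive after median-of-ratios scaling, so no direction is drawn for them.

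Hsf1 (chromosome 15, 76477362 to 76501155, plus strand), the gene of the transcription factor, was expressed at a low level and fell after aCD3 in SPF. It was at 11.98, 17.0 and 9.17 TPM in SPF isotype F1 to F3 and at 15.2, 15.3 and 17.9 TPM in M1 to M3, and at 4.04 to 7.57 TPM in SPF aCD3, without overlap. The fall was 1.17 ± 0.21 on the log2 scale (limma adjusted p = 5.49e-05), with at least 162 reads behind each value. In GF isotype it was at 15.5 to 22.7 TPM, no lower than in SPF isotype, so Hsf1 transcript and Hspa1a transcript did not go together between these groups. GF aCD3 values lay apart from each other, at 7.34, 9.04 and 7.72 TPM in M1, M2 and M5 whereas F1, M3 and M4 had 18.3, 22.6 and 18.4 TPM. Lag3 in M1, M2 and M5 was at 452 to 527 TPM, and in F1, M3 and M4 at 9.59 to 17.0 TPM, so a low Hsf1 value and a high Lag3 value stood in the same libraries. As a group GF aCD3 differed from GF isotype by -0.41 ± 0.20 (adjusted p = 0.133), or by -0.57 without M3 (adjusted p = 0.0231). GF aCD3 was higher than SPF aCD3 by 1.05 ± 0.22 (adjusted p = 0.000808), and still by 0.72 after median-of-ratios scaling (adjusted p = 0.00269).

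**Figure D2:**
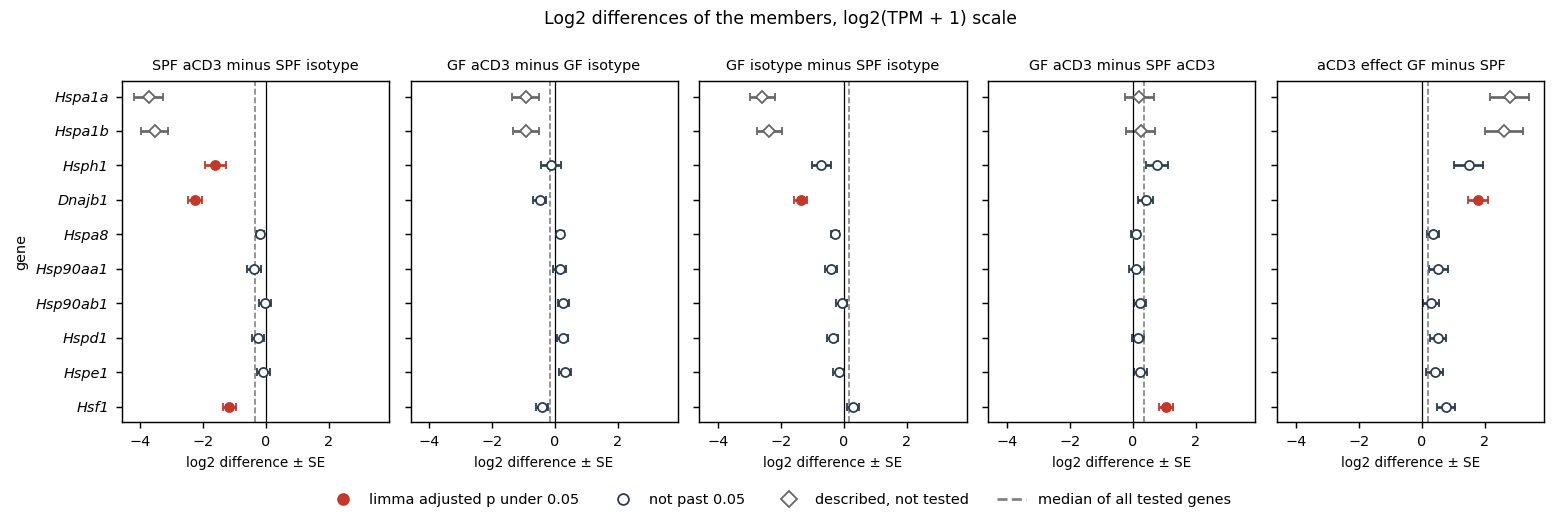
Log2 differences with their standard errors for each gene in 5 comparisons on the log2(TPM + 1) scale; filled circles passed the limma test, open diamonds are the Hspa1 pair, described without a test, and the dashed line is the median of all tested genes. In SPF aCD3 against SPF isotype the Hspa1 pair, Dnajb1, Hsph1 and Hsf1 lie left of the dashed line, and the other 5 lie close to it or to the right.

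Counted over the remaining comparisons, few of the genes were called. For GF aCD3 against GF isotype 0 of 8 passed with limma, against 7.08% of all tested genes (9.83% after scaling), while 2 of 8 had an unadjusted p under 0.05 (Dnajb1 and Hsf1), and voom also called 0. Leaving out M3 gave 2 calls and leaving out M4 gave 1. Within the sample numbers 25 to 33 and 48 to 54 no gene of any kind was called (0% of 12182 in each, with 3414 and 1530 at an unadjusted p under 0.05), nor in the difference between them (0%, with 252), so no gene was called there, member or not. In GF isotype against SPF isotype 1 of 8 passed, Dnajb1, against 7.17% of all genes (1.61% after scaling). Dnajb1 and the Hspa1 pair, 3 of the 10, lay lower there without overlap, where 2.63% of all tested genes did not overlap in TPM and 0.238% lay lower; the pair was chosen by this contrast, so nothing is read from its share. Between GF aCD3 and SPF aCD3 1 of 8 passed, Hsf1, against 53.3% of all genes (33% after scaling, with 2130 higher and 1890 lower against 5953 higher and 543 lower in TPM). In the difference of the aCD3 effects 1 of 8 passed, Dnajb1, against 3.48% (11% after scaling, where Hsph1 passed as well). The comparisons share groups, so their counts are not independent of each other.

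Between male and female mice 0 of 10 passed with limma, where 0.107% of all genes did; 2 of 10 had an unadjusted p under 0.05, and voom called 0. Hsp90ab1 was higher in males by 0.30 ± 0.13 (adjusted p = 1.0, unadjusted p = 0.03) and Hsph1 by 0.52 ± 0.23 (adjusted p = 1.0, unadjusted p = 0.037). In SPF isotype 4 of the 10 genes did not overlap between the 3 females and the 3 males, all higher in males, against 15.2% of all tested genes without overlap in either direction. These were Hspa1a, Hspa1b, Hspa8 and Dnajb1, the last at 410 to 545 TPM in females and 834 to 934 TPM in males. In SPF aCD3 4 of the 10 again did not overlap, all higher in females, against 21.5% of all tested genes. These were Hsp90aa1, Hspd1, Hspe1 and Dnajb1, which here ran the other way, at 132 to 148 TPM in females and 111 to 128 TPM in males. GF aCD3 holds 1 female and 5 males, and no sex difference is claimed from these values.

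The genes split into sets that varied together from library to library. Over the 28 libraries, as deviations from the group mean of log2(TPM + 1), Pearson's r was 0.988 between Hspa1a and Hspa1b, which share reads, and 0.8 and 0.847 between these and Dnajb1. Hsp90aa1, Hsp90ab1, Hspd1 and Hspe1 had r of 0.906 to 0.969 with each other, and Hsph1 had 0.842 to 0.912 with these 4. Between the Hspa1 pair and those 4 it was lower, from 0.383 to 0.59, although the chaperones are all of the heat shock response. Hspa8 was closer to Hsp90ab1 (0.913) than to Hspa1a (0.658), and Hsf1 had its highest r with Dnajb1 (0.632). These correlations describe libraries that share depth, composition and group spread, and carry no test.

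**Figure D3:**
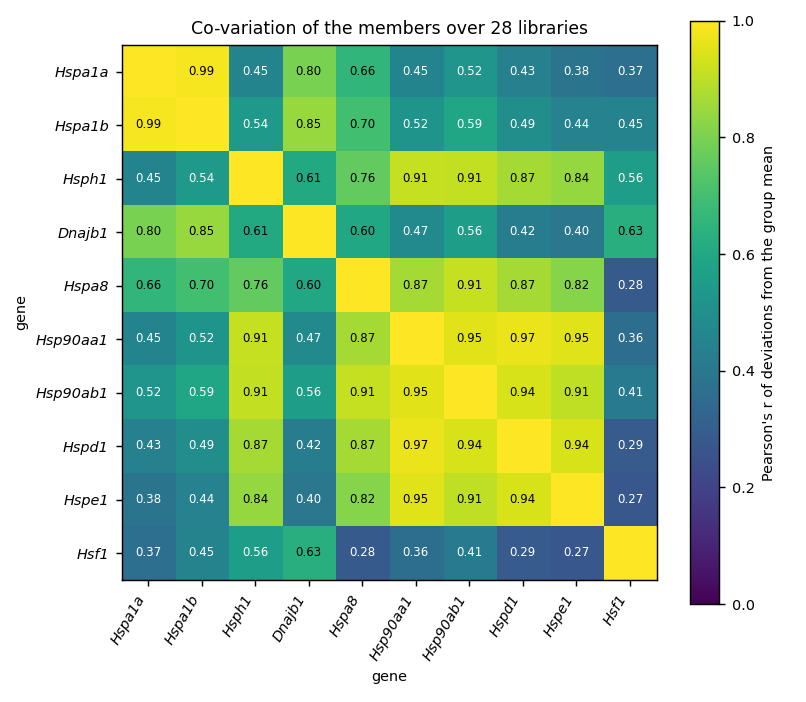
Pearson's r between the genes over 28 libraries, as deviations of log2(TPM + 1) from the group mean; rows and columns are genes and brighter cells are higher r. The block of Hsp90aa1, Hsp90ab1, Hspd1 and Hspe1 has r of 0.906 or more, and Hsf1 has r of 0.271 to 0.632 with the others.

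Candidates for likeness were 7903 genes with a mean of at least 5 TPM, without the members themselves and without Gm or Rik symbols. Among them the 3 genes most like each member gave the same split. For Hspa1a they were Atf3 (r = 0.846), Zfp36 (0.842) and Phlda1 (0.841), and for Hspa1b Jun (0.848), Fosb (0.847) and Atf3 (0.84). Atf3, Jun and Fosb encode AP-1 and related factors of the immediate early response, and Zfp36 an RNA-binding protein of the same response. For Dnajb1 they were Bag3 (0.896), a nucleotide exchange factor of Hsp70, then Jun (0.849) and March5 (0.841), a ubiquitin ligase gene of the mitochondrial outer membrane. For Hsp90aa1, Hsp90ab1, Hspd1 and Hspe1 they were drawn from Stip1, Ahsa1, Cct7 and St13, all chaperone or co-chaperone genes, with r of 0.867 to 0.961. Hsph1 was nearest to Ahsa2 (0.958), Stip1 (0.952) and Chordc1 (0.946), all Hsp90 co-chaperone genes. Hspa8 was nearest to Ahsa1 (0.865), Psmd13 (0.862), a proteasome subunit gene, and St13 (0.836). Hsf1 was nearest to Sf1 (0.95), a splicing factor gene, Spata5 (0.94) and Mib1 (0.937), none of them a chaperone gene.

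The wider chaperone network was described from 7 lists that hold none of the 10 genes, 80 tested genes in all. After aCD3 in SPF, 39 of the 80 fell and 7 rose in TPM, with a median of -0.30 against -0.35 for all tested genes. Of all tested genes 50.7% fell and 14.2% rose, so neither count of the 80 exceeds its background. After median-of-ratios scaling 17 fell and 27 rose, with a median of 0.064, against 31.6% and 28.5% of all genes, so the direction of the network as a whole follows the scaling. The counts of the single lists are read against these shares. The J-domain proteins had 16 lower and 1 higher of 19, with 6 of the 16 lower and that 1 higher under both scalings; after scaling 6 were lower and 2 higher. Dnajb4 fell by 2.63 ± 0.29 (limma adjusted p = 6.02e-07), from 85.3 ± 15.2 to 12.9 ± 2.34 TPM, while Dnajc9, a histone co-chaperone gene, rose by 1.19 ± 0.20 (adjusted p = 2.94e-05), from 80.7 ± 7.69 to 185 ± 22.7 TPM. Of the Hsp70 relatives and exchange factors 8 of 13 fell and 0 rose in TPM, while 5 fell and 4 rose after scaling, the 5 being lower under both. Hspa1l, which shares windows with the Hspa1 pair, is among these 5, and nothing is read from its call. Bag3 fell by 1.65 ± 0.18 (adjusted p = 7.77e-07 by limma), and the mitochondrial Hsp70 gene Hspa9 fell by 0.30 ± 0.11 (adjusted p = 0.0212) in TPM only, with 0.071 after scaling (adjusted p = 0.596).

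Of the Hsp90 co-chaperones 6 of 17 fell and 1 rose in TPM, but 3 fell and 6 rose after scaling, so the balance turned; 3 were lower and 1 higher under both. Ahsa2, an activator of the Hsp90 ATPase, fell by 0.78 ± 0.19 (limma adjusted p = 0.0008), or by 0.41 after scaling. Fkbp8, an immunophilin gene, rose by 0.26 ± 0.10 (adjusted p = 0.0204), or by 0.63 after scaling. The CCT chaperonin and prefoldin, which fold actin and tubulin, went the other way in part: 5 of 14 rose and 3 fell, and after scaling 11 rose and 2 fell. Tcp1, a CCT subunit, rose by 0.42 ± 0.11 (adjusted p = 0.00195), or by 0.80 after scaling, and Pfdn5, a prefoldin subunit, fell by 1.12 ± 0.13 (adjusted p = 1.19e-06), or by 0.75 after scaling. Of the mitochondrial chaperones and proteases 8 of 12 fell and 0 rose in TPM, but 1 fell and 3 rose after scaling, so here too the balance turned. The 8 ran from Grpel2 (-0.62 ± 0.13, limma adjusted p = 0.000167) to Clpx (-0.21 ± 0.08, adjusted p = 0.0183). After scaling these were at -0.29 (adjusted p = 0.0166) and 0.11 (adjusted p = 0.172), so Clpx turned in sign and lost its call. In the HSF family and HSF1-binding list 0 of 3 tested genes was called with limma in TPM and 0 had an unadjusted p under 0.05, while voom called 1 and limma after scaling called 1, higher. Of the small heat shock proteins 0 of 4 was called with limma, 0 had an unadjusted p under 0.05, and voom called 0. Of 16 other heat-inducible genes 13 fell and 1 rose, 11 and 1 under both scalings, with Bag3 the lowest and Mrpl18, a mitochondrial ribosomal protein gene, the highest (0.80 ± 0.12, adjusted p = 1.16e-05).

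**Figure D4:**
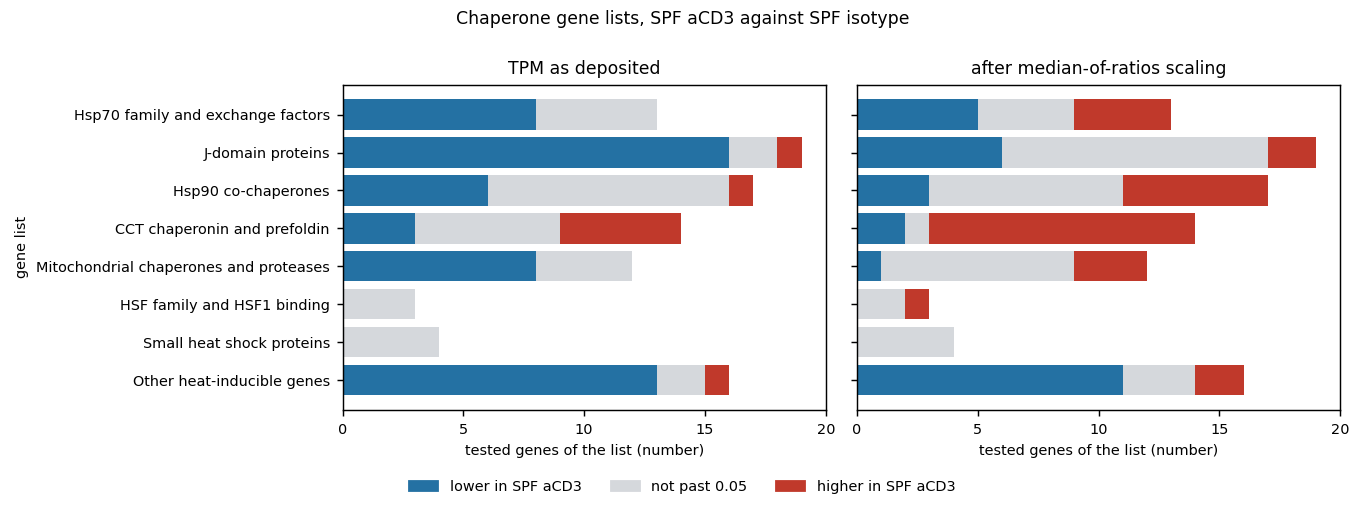
Number of tested genes in each chaperone or heat-inducible list that were lower, higher or not past the limma threshold in SPF aCD3 against SPF isotype, for TPM as deposited (left) and after median-of-ratios scaling (right). J-domain proteins have 16 lower in TPM and 6 after scaling, while the CCT chaperonin and prefoldin have 5 higher in TPM and 11 after scaling.

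The lists gave fewer calls in the GF comparisons. After aCD3 in GF 5 of the 80 fell and 0 rose in TPM, Dnajb4, Dnajc8, Pfdn5, Grpel2 and Clpx, with adjusted p from 0.0482 to 0.0484 by limma, while after scaling 2 fell and 3 rose, Dnajb4 being the only one of the 5 still called. Of all tested genes 4.61% fell and 2.46% rose in TPM, and 4.2% fell and 5.63% rose after scaling. The 5 of 80 called in either direction is a smaller share than the 7.08% of all genes in TPM and the 9.83% after scaling. The share that fell in TPM is a little above 4.61%. After scaling, with 2 of 80 against 4.2%, it is below, so no excess is read. In GF isotype against SPF isotype 4 of 80 rose and 2 fell in TPM, against 6.42% and 0.755% of all genes, and 0 rose and 5 fell after scaling, against 0.443% and 1.17%. The 2 that fell in TPM were Hspa1l (-1.12, adjusted p = 0.00114), an Hsp70 gene beside the Hspa1 pair that shares windows with it, and Bag3 (-0.63 ± 0.16, adjusted p = 0.0202). As the pair was chosen by this contrast, nothing is read from the call of Hspa1l, here or in the difference of the aCD3 effects. In the difference of the aCD3 effects 7 of 80 were higher and 0 lower in TPM, and 7 were higher and 1 lower after scaling, beside 2.44% of all genes higher and 1.04% lower in TPM and 5.81% higher and 5.14% lower after scaling. The 7 in TPM were Bag3 (1.14), Hspa1l (1.23), Dnaja1 (1.21), Dnaja4 (1.53), Dnajb2 (1.66), Dnajb4 (1.70) and Pfdn5 (0.70), with adjusted p from 0.0131 to 0.0364; Pfdn5 was no longer called after scaling (0.48, adjusted p = 0.0501). Between the aCD3 groups 38 were higher and 1 lower in TPM, but 7 and 13 after scaling, beside 48.9% of all genes higher and 4.46% lower in TPM and 17.5% and 15.5% after scaling. Genes of these counts other than the highest and lowest of each list were named after their values had been seen.

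Transcripts known to respond to cell handling were also lower in SPF aCD3. The 16 immediate early genes of that list summed to 20119 to 24731 TPM in SPF isotype, 5919 to 6698 TPM in SPF aCD3, 12031 to 22597 TPM in GF isotype and 4960 to 21408 TPM in GF aCD3. In SPF 13 of 16 fell and 1 rose, 11 and 1 under both scalings, where 50.7% of all genes fell and 14.2% rose in TPM; Fos fell by 2.41 ± 0.24 (limma adjusted p = 3.35e-07), from 2635 ± 331 to 495 ± 53.5 TPM, and Ier3 rose by 0.98 ± 0.37 (adjusted p = 0.0232). In GF isotype against SPF isotype 2 of 16 fell, Jun (-1.42, adjusted p = 0.000624) and Atf3 (-0.99, adjusted p = 0.0432), where 0.755% of all genes fell, and 5 fell after scaling, where 1.17% did. After aCD3 in GF 5 fell (Klf6, Fos, Jun, Dusp1 and Fosb), where 4.61% of all genes did, and 4 fell after scaling (4.2%), without Fosb (-0.61, adjusted p = 0.0507). In the difference of the aCD3 effects 6 were higher, where 2.44% of all genes were, and 8 after scaling (5.81%). In GF isotype these genes summed to 17799 to 22597 TPM in the numbers 25 to 33 and to 12031 to 18707 TPM in 48 to 54. In GF aCD3 they summed to 9202, 8205 and 4960 TPM in M1, M2 and M5 and to 14678, 21408 and 15203 TPM in F1, M3 and M4, the libraries with low Lag3. The part of handling in the Hspa1 and Dnajb1 results was not tested, nor was whether these early genes reflect handling or aCD3.

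The summed markers of 4 other kinds of cell, at low levels, had a lower median in SPF aCD3 and in GF isotype than in SPF isotype. The 7 B and plasma cell markers summed to 95.7 to 272 TPM in SPF isotype, 2.51 to 8.97 TPM in SPF aCD3, 10.995 to 114 TPM in GF isotype and 6.67 to 97.7 TPM in GF aCD3, and 2 of 3 tested fell in SPF, Jchain (-6.53 ± 0.78, limma adjusted p = 1.36e-06) and Mzb1 (-1.65 ± 0.35, adjusted p = 0.000292). The 8 stromal and endothelial markers summed to 15.0 to 50.8 TPM in SPF isotype, 3.0 to 6.04 TPM in SPF aCD3, 7.66 to 13.9 TPM in GF isotype and 3.65 to 11.9 TPM in GF aCD3. Within GF isotype they ran against Hspa1a, at 7.66 to 9.23 TPM in the numbers 25 to 33 and 9.56 to 13.9 TPM in 48 to 54. The B and plasma cell sums there were 16.4 to 114 TPM and 10.995 to 26.2 TPM. All 4 tested stromal and endothelial markers fell in SPF, from Dcn (-2.59 ± 0.24, adjusted p = 1.21e-07) to Lum (-1.27 ± 0.29, adjusted p = 0.000536), and Col1a2 was at 0 in all SPF aCD3 libraries. The 5 erythroid markers summed to 2.29 to 10.2 TPM in SPF isotype and to at most 2.66 TPM in any other library, with Hba-a1, Hba-a2, Hbb-bs and Hbb-bt at 0 in all SPF aCD3 libraries, Hba-a1 and Hba-a2 at 0 in all GF isotype libraries, and these with Hbb-bs at 0 in all GF aCD3 libraries. The 1 tested, Alas2, was not called in SPF aCD3 against SPF isotype or in GF isotype against SPF isotype (0 called with limma, 0 at an unadjusted p under 0.05 and 0 with voom in each), and was higher in GF aCD3 than in SPF aCD3 by 0.46 ± 0.16 (limma adjusted p = 0.018) in TPM but not after scaling (0.26, adjusted p = 0.159). The 4 CD8 T cell and NK markers summed to 28.2 to 40.1 TPM in SPF isotype and 12.1 to 26.6 TPM in SPF aCD3, without overlap, to 12.2 to 72.2 TPM in GF isotype and to 11.7 to 24.3 TPM in GF aCD3. Of these Ncr1, a receptor gene of NK cells, fell in SPF (-1.97 ± 0.29, limma adjusted p = 6.8e-06), was lower in GF isotype than in SPF isotype (-1.25 ± 0.26, adjusted p = 0.00458) and differed in its aCD3 effect (1.83 ± 0.39, adjusted p = 0.0197). Klrb1c fell (-2.67 ± 0.39, adjusted p = 7.4e-06) and Cd8b1 rose (0.54 ± 0.19, adjusted p = 0.0139) in SPF.

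The 11 myeloid markers summed to 9.49 to 27.6 TPM in SPF isotype, 61.8 to 108 TPM in SPF aCD3, 9.47 to 31.9 TPM in GF isotype and 13.4 to 61.5 TPM in GF aCD3, led by Cd68, which rose in SPF by 3.83 ± 0.51 (limma adjusted p = 3.3e-06), while 2 of the 5 tested fell, Tyrobp lowest (-1.56 ± 0.27, adjusted p = 3.74e-05). Cd14 was at 0 in all SPF isotype libraries and C1qa and C1qb in all SPF aCD3 libraries. The 9 epithelial markers summed to 7.62 to 25.6 TPM in SPF isotype, 5.39 to 12.8 TPM in SPF aCD3, 6.64 to 75.5 TPM in GF isotype and 6.8 to 30.9 TPM in GF aCD3, with 1 of 8 lower in SPF, Cdh1 (-1.12 ± 0.22, adjusted p = 0.000153), and 1 lower and 1 higher after scaling. Of the 7 T cell markers 2 rose and 2 fell in SPF in TPM, from Ptprc (-0.65 ± 0.14, adjusted p = 0.000405) to Cd3d (0.45 ± 0.08, adjusted p = 4.2e-05). After scaling 4 rose and 1 fell, with -0.27 for Ptprc and 0.83 for Cd3d. In SPF aCD3 and in GF isotype, Hspa1a and Dnajb1 were lower than in SPF isotype. So were the median sums of the B and plasma cell, stromal and erythroid markers. Ncr1 was lower there as well, but in GF isotype against SPF isotype Klrb1c (-0.12 ± 0.35, limma adjusted p = 0.851) and Cd8b1 (0.18 ± 0.17, adjusted p = 0.517) were not called. The part of other cells in the Hspa1a and Dnajb1 results was not tested.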

How the data were processed

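RNA of sorted lamina propria CD4+ T cells was sequenced in 28 libraries. TPM values were deposited by the authors, who per the file headers computed them with HOMER's analyzeRepeats.pl over RefSeq transcripts of mm10, dividing by a length that equals the genomic span in 99.24% of rows. The aligner's settings and use of strand were not given in the sources used here, and the labels name both polyA RNA and a total RNA kit. The table's 26 other TPM columns match no sample and were not used.

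Whole reads were recovered from TPM and length, and 100.0% of low values checked came out whole within 0.05 reads; counting error alone sets their precision. Tested genes had 1 TPM or more in 6 libraries (12182, all 10 members among them); the test was limma 3.58.1 (R 4.3.3) on log2(TPM + 1), which understates the change of low genes, with group means, a sex term and Benjamini-Hochberg adjustment per comparison at 0.05. The fit was tested on simulated data. Alternatives were other pseudocounts, filters and scalings, voom on the recovered reads, a replicate block, a term for the span of sample numbers, the summed Hspa1 pair, and each library left out; fits within the spans of sample numbers were chosen after seeing the data. Members and gene lists were chosen with earlier results of these data known, and tests of the Hspa1 pair between groups were dropped for that reason, those planned for both comparisons of GF aCD3 among them. Named were all members, the 3 genes most like each, and the called genes with the highest and lowest change in SPF of each list: HSF family and HSF1 binding, Hsp70 family and exchange factors, J-domain proteins, Hsp90 co-chaperones, CCT chaperonin and prefoldin, mitochondrial chaperones and proteases, small heat shock proteins, other heat-inducible genes, handling-responsive early genes and the cell markers. Marker and handling lists were also summed per library, and 1 marker is not reported here. Sequences are from RefSeq, and exon lengths from GENCODE M21. Python 3.11.15, NumPy 2.4.6 and pandas 2.3.3 were used.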

Additional observations from a re-analysis of the deposited data

Results flagged for a closer look

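The aCD3 effect on Dnajb1 differed between GF and SPF mice by 1.78 on the log2 scale (limma adjusted p = 0.00404). It was the only one of the 8 members tested for this difference to pass in TPM, where 3.48% of all tested genes did. After median-of-ratios scaling 11% did, and Hsph1 passed as well (limma adjusted p = 0.0474). The GF effect on Dnajb1 is a mean over libraries that split with Lag3. The gene was at 152, 136 and 118 TPM in the high-Lag3 libraries M1, M2 and M5. In the low-Lag3 libraries F1, M3 and M4 it was at 204, 279 and 289 TPM. In 2 of 40 sets of values, each a member in a group, a single library lay far from the rest, as chance gives in about 1 of 20. GF isotype F5 had 1020.9 TPM of Hspa8, the lowest of its group, and GF isotype F4 had 22.7 TPM of Hsf1, the highest of its group.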

How the results depend on the processing

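Depth does not limit these genes, since the lowest value of any of them rests on at least 162 reads; the spread between libraries does. The 3 calls in SPF aCD3 against SPF isotype and the single call (Dnajb1) in GF isotype against SPF isotype kept their number in every fit that left out a library. Calls ranged from 0 to 2 in GF aCD3 against GF isotype, from 1 to 3 in GF aCD3 against SPF aCD3 and from 1 to 3 in the difference of the aCD3 effects when libraries were left out. The first moved without GF aCD3 M3 or M4. The second moved without SPF aCD3 F1 or GF aCD3 M1 or M5, which added Hsph1 and, without M5, Dnajb1. The last moved without SPF isotype F3, GF isotype M4 or GF aCD3 M1, M2 or M5, which added Hsph1 and, except without M4, Hsf1. That difference had 2 calls after median-of-ratios scaling and 2 with voom, Hsph1 being added (1.28 and 1.25). Voom gave 4 calls in SPF, with Hsp90ab1 added. Of 515 other values of single members under these settings 475 kept direction and side of the threshold (for the untested Hspa1 pair, moved by less than the spread between libraries), and of 1400 with a library left out 1370 did.

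The sign turned in SPF aCD3 against SPF isotype as follows, and the cause was not tested. With median-of-ratios scaling it gave 0.19 for Hspa8, 0.35 for Hsp90ab1, 0.11 for Hspd1 and 0.29 for Hspe1. Without Rn45s and histone genes in the total it gave 0.084, 0.24, 0.005 and 0.19 for these, and with voom 0.23, 0.39, 0.15 and 0.34, with 0.032 for Hsp90aa1. In GF aCD3 against GF isotype Hsph1 turned to 0.037 with median-of-ratios scaling, 0.001 without Rn45s and histone genes and 0.046 with voom. Within the numbers 25 to 33 it was 0.23, and within 48 to 54 Hsp90aa1 was -0.15 and Hspd1 -0.03. In GF aCD3 against SPF aCD3 median-of-ratios scaling gave -0.18 for Hspa1a, -0.14 for Hspa1b, -0.30 for Hspa8, -0.27 for Hsp90aa1, -0.17 for Hsp90ab1, -0.22 for Hspd1 and -0.14 for Hspe1. Voom gave -0.21, -0.17, -0.33, -0.30, -0.20, -0.25 and -0.17 for these, and -0.001 for Dnajb1; without Rn45s and histone genes Hspa8 was -0.024.

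Leaving out a library turned the sign of Hsp90ab1 (-0.108 to 0.075) and Hspe1 (-0.165 to 0.04) in SPF, of Hsph1 in GF (-0.365 to 0.1), and of Hsp90ab1 in GF isotype against SPF isotype (-0.127 to 0.005). In GF aCD3 against SPF aCD3 it turned that of Hspa1a (-0.036 to 0.438), Hspa1b (-0.041 to 0.485), Hspa8 (-0.004 to 0.18), Hsp90aa1 (-0.072 to 0.257) and Hspd1 (-0.015 to 0.316). Ranks of levels moved in 24 of 40 cases with spliced length in place of genomic span.

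Libraries of different groups with the same sex letter and number share only a name: the correlation of their deviations was over 0.1 in 1 of 12 pairs and ran from -0.3 to 0.21. With that name as a replicate block the calls stood at 3, 0, 1, 1 and 1 in the 5 comparisons of groups, and Hsp90ab1 in GF isotype against SPF isotype turned to 0.001.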
